A study of Homo sapiens with 6 samples.

Results

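The genes described here carry cells from G1 into S phase and copy the genome. They are 57 human genes chosen by symbol from a list of G1/S kinases and cyclins, E2F and DP factors, origin licensing proteins, replisome subunits and nucleotide supply enzymes, and all 57 were among the 58735 genes of the expression table. The list was set by gene name and took no measured value as input. Earlier results of these data were known when it was drawn up. Of the 57 genes, 56 had a mean of at least 1 FPKM (fragments scaled to exon length and library size) over the 6 libraries and were tested between PRMT1 knockdown and control cells, among 13585 genes tested in all. E2F5, the remaining gene, averaged 0.819 FPKM with 62 to 102 reads per library, and is given by its values only.

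RNA was sequenced from MM.1S, an established human multiple myeloma cell line, in 3 control libraries and 3 PRMT1 knockdown (PRMT1 KD) libraries. PRMT1 is the main enzyme that places asymmetric dimethylation on arginine residues. Per the study's methods, control cells received a negative control siRNA (si-NC) and knockdown cells an siRNA against PRMT1, both at 100 nM with a lipid transfection reagent, and cells were collected after 72 h to examine the knockdown; which PRMT1 siRNA was used for sequencing is not given there. The study's methods call the replicates of its experiments biological, but neither they nor the labels say whether the sequenced ones were separate cultures, so the p-values measure the spread between these libraries, which may be technical. All cells are of 1 line at 1 time.

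The libraries held 14439217 to 16465026 reads on genes. Plasma cell markers were present: SDC1, the syndecan used to identify myeloma cells, lay between 45.5 and 54.7 FPKM, IRF4, a transcription factor myeloma cells depend on, between 115 and 118 FPKM, and TNFRSF17, the gene of BCMA, between 255 and 318 FPKM. SLAMF7, a surface antigen of plasma cells, was the 1 of 9 plasma cell markers that passed the test at an adjusted p under 0.05. It fell from 38.0 ± 0.961 to 23.8 ± 1.17 FPKM (SD, n = 3; log2 difference -0.65, limma adjusted p = 0.00515), where 0.986% of all tested genes fell. At an unadjusted p under 0.05, 2 of the 9 were higher and 3 lower, against 10.1% and 9.47% of all tested genes. Of 12 markers of other marrow cells, HBB, PPBP, PF4 and MS4A1 had 0 reads in every library, and CD14, LYZ, CD68, MPO and COL1A1 had at most 6. PAX5, a B cell factor, was near the test's minimum at 0.781 to 1.30 FPKM (difference -0.06, adjusted p = 0.863). CD3E was well expressed, at 32.1 to 35.6 FPKM in control and 36.5 to 39.0 FPKM in PRMT1 KD libraries, while CD3D, the partner gene that T cells also need, had 0 to 13 reads. The summed level of the 12 markers, nearly all of it CD3E, was 33.6 to 37.8 FPKM in control and 38.1 to 40.1 FPKM in PRMT1 KD libraries. Reads from the mitochondrial genome made up 6.13% to 6.23% of control and 5.39% to 5.90% of PRMT1 KD libraries. The part of CD3E and of the mitochondrial share in the values below was not tested.

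A check of the cell line, on genes chosen after their values were seen, went against the label. MAF, the transcription factor gene that an immunoglobulin translocation is known to activate in MM.1S, had 0 reads in all 6 libraries, where a count of 0 allows up to 3 reads per library. ITGB7, a known target of MAF, had 1 to 7 reads. CCND1, the cyclin D1 gene, lay between 98.6 and 116 FPKM and CCND2, the cyclin D2 gene, between 13.0 and 13.6 FPKM. Both groups shared this pattern, and the name MM.1S is used here as the labels give it.

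Entry into S phase is set by cyclin-dependent kinases that phosphorylate the retinoblastoma protein and free E2F factors, which then switch on the genes for DNA synthesis. In G1 the origin recognition complex, with CDC6 and CDT1, loads the MCM2-7 helicase onto origins. CDC7 and CDK2 then recruit CDC45 and GINS to make the active helicase, primase and polymerases copy the strands behind it on the PCNA clamp, and ribonucleotide reductase and thymidylate enzymes supply the deoxynucleotides. In myeloma these genes are commonly read as a measure of the proliferating fraction of tumor cells.

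The promoters of these genes share a sequence that the list did not use. The E2F motif was searched on both strands as the words TTTCCCGC, TTTCGCGC, TTTGCCGC and TTTGGCGC in windows from 250 bases before to 50 bases after each start site, taken from the RefSeq annotation of GRCh38.p14. Of 50 listed genes with a window, 23 held the motif (46%), against 908 of 27305 promoters (3.33%) and 497 of 8491 promoters of tested genes (5.85%). Examples from genes described below are printed 5′ to 3′ on the strand of the gene, with the motif, or its reverse complement where it lies on the opposite strand, in capitals:
E2F1, chr20:33686388-33686415, minus strand: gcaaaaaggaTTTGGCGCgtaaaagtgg
CDC25A, chr3:48188444-48188471, minus strand: gtggattccgTTTGGCGCcaactaggaa
CDT1, chr16:88803744-88803771, plus strand: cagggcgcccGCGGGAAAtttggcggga
MCM6, chr2:135876516-135876543, minus strand: attggtcaggTTTGGCGCgaaatctcca
PCNA, chr20:5126664-5126691, minus strand: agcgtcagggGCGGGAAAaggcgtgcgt
POLE, chr12:132687343-132687370, minus strand: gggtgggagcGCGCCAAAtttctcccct
TFDP1, chr13:113584623-113584650, plus strand: ggcgccgaagGCGCGAAAaggcgcgcag
They hold 3 of the 4 words, in genes of different roles, an E2F gene and an E2F partner included, while 27 of the 50 windows held none. All 4 MCM2-7 genes with a window held it. A word can overlap the reverse complement of another of the words, as in MCM6, and each promoter was counted once. The CCAAT word stood in 24 of the 50 promoters (48%, against 35.7% of all promoters and 37.9% of promoters of tested genes). TTTGAA, the word of the CHR element found in promoters of mitotic genes, stood in 3 (6%, against 15.4% of all promoters and 9.76% of promoters of tested genes). A match is a description of letters, and where there is none, only these letters are missing from this window.

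PRMT1 itself was read first, as a check of the knockdown. Its level was 61.7, 62.8 and 58.9 FPKM in control replicates 1, 2 and 3 and 13.3, 14.0 and 12.5 FPKM in PRMT1 KD replicates 1, 2 and 3. The PRMT1 KD mean was 21.7% of the control mean, and the gene fell by 2.13 on the log2(FPKM + 1) scale (SE 0.0552, adjusted p = 2.77e-05).

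After PRMT1 knockdown the G1/S and replication genes lay slightly higher as a set. Of the 56 tested genes, 49 (87.5%) had a higher mean in PRMT1 KD than in control cells, with a median log2 difference of 0.13 and quartiles of 0.058 and 0.19. Over all 13585 tested genes, 52.6% were higher, with a median of 0.0095 and quartiles of -0.097 and 0.11. The summed level of the 57 genes was 1292, 1365 and 1249 FPKM in control replicates 1, 2 and 3 and 1382, 1414 and 1412 FPKM in the PRMT1 KD replicates. The 3 PRMT1 KD sums lay above all control sums, and their mean was 107.8% of the control mean.

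**Figure D1:**
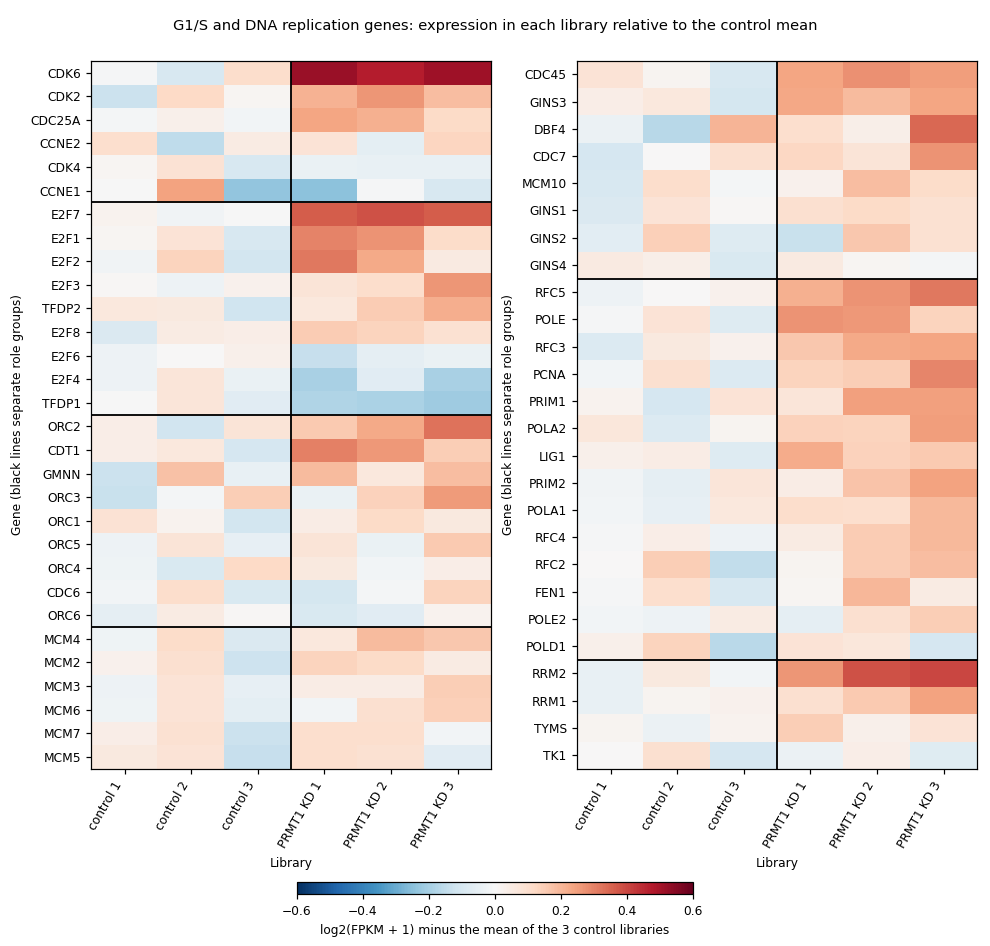
Expression of the 56 tested genes in each of the 6 libraries, as log2(FPKM + 1) minus the mean of the 3 control libraries (red, higher; blue, lower), ordered by role and by the size of the difference. The PRMT1 KD columns are mostly red, with CDK6, E2F7 and RRM2 the darkest rows, while E2F4, E2F6 and TFDP1 are blue.

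In most single genes the difference did not pass the test. At an adjusted p under 0.05, 4 of the 56 rose (CDK6, E2F7, RFC5 and RRM2), where 1.07% of all tested genes rose. None of the 56 fell, against 0.986% of all tested genes. At an unadjusted p under 0.05, 18 were higher, where 10.1% of all genes were, and 2 (TFDP1 and E2F4) were lower, where 9.47% were. In 24 genes all PRMT1 KD libraries lay above all control libraries, against 13.6% of all genes, and in 3 (TFDP1, E2F4 and E2F6) they lay below, against 12.3%. An exact two-sided permutation test over 3 against 3 libraries cannot give less than 0.1, and it gave 0.1 for each of these 27 genes. None of the 4 calls held in every fit with 1 library left out. In those fits the adjusted p ranged from 0.0300 to 0.135 for CDK6 and 0.0543 to 0.135 for E2F7. It ranged from 0.0795 to 0.192 for RFC5 and 0.0668 to 0.165 for RRM2. CDK6 without control replicate 3 was the only call kept in those fits. Over 16 alternative settings E2F7 passed in 9, CDK6 in 8, RRM2 in 7 and RFC5 in 4. The direction of all 4 held in each. Under median scaling the direction of CDC6 and POLD1 turned, and that of no other listed gene. With 1 library left out the direction turned in 1 to 5 listed genes. Those without control replicate 2 were CCNE1, CCNE2, ORC4 and TK1. In bulk samples, fewer cells of a type and less RNA per cell cannot be told apart.

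**Figure D2:**
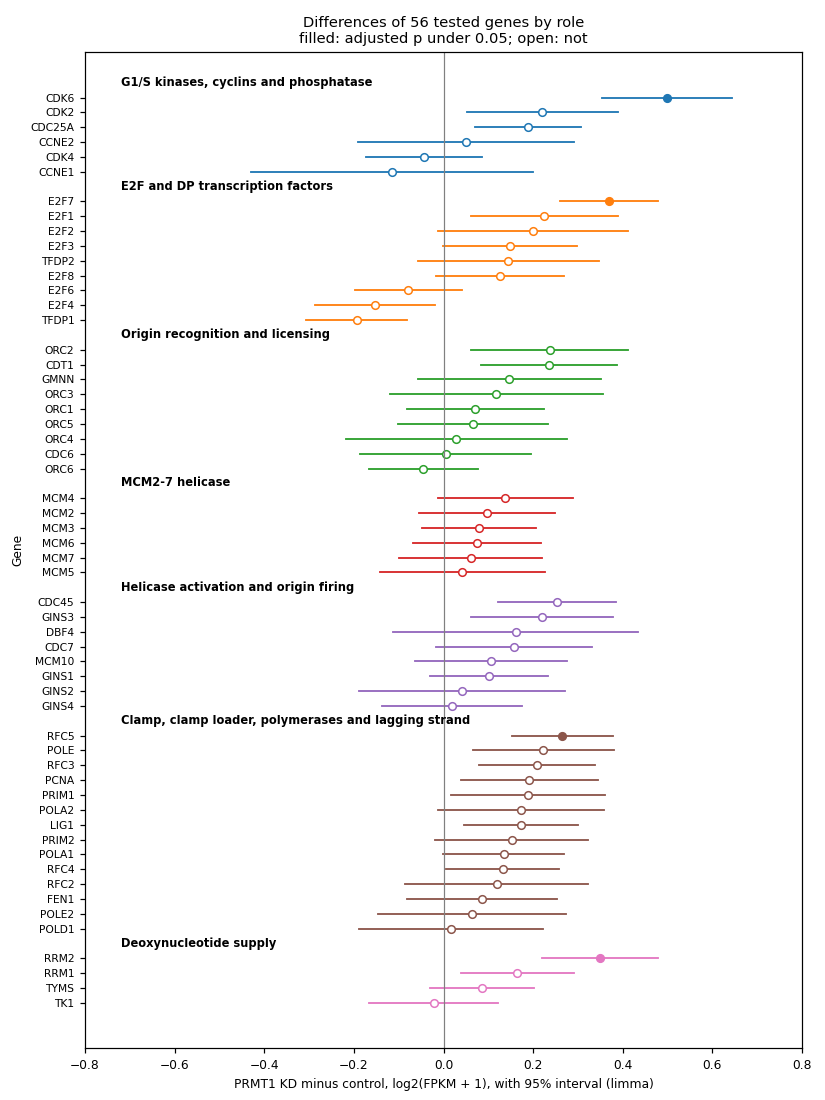
Difference between PRMT1 KD and control for each of the 56 tested genes in log2(FPKM + 1), with its 95% interval from limma, grouped by role. Filled points mark the 4 genes with an adjusted p under 0.05, and 7 points lie left of 0.

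Among the G1/S kinases, cyclins and the phosphatase, CDK6 rose and the others did not pass the test. CDK6, a partner of D-type cyclins that phosphorylates the retinoblastoma protein, lies on chromosome 7 at 92604921 to 92836594 (hg38, minus strand). It was at 13.9, 13.0 and 15.1 FPKM in the control replicates and 20.4, 19.7 and 20.3 FPKM in the PRMT1 KD replicates, with 2568 to 4138 reads per library. Every PRMT1 KD library lay well above every control library. The PRMT1 KD mean was 144% of the control mean, a log2 difference of 0.50 (SE 0.0613, adjusted p = 0.0240), the largest of the 56. CDK4, the other kinase that works with D-type cyclins and the most highly expressed gene of this role, gave 39.4, 41.5 and 36.4 FPKM in control and 38.0, 37.8 and 37.8 FPKM in PRMT1 KD libraries. Its groups overlapped, and the difference of -0.04 had a 95% interval of -0.17 to 0.09 (adjusted p = 0.711). CDK2, which drives S phase entry with cyclin E, had 10.9, 13.2 and 12.2 FPKM in control and 14.1, 14.7 and 13.9 FPKM in PRMT1 KD libraries, separate groups with a difference of 0.22 (SE 0.0713) that did not pass (adjusted p = 0.156). The cyclin E genes were low, CCNE1 at 2.73 to 4.23 FPKM and CCNE2 at 2.03 to 2.67 FPKM, with overlapping groups. Exons of CDK4 overlap TSPAN31 on the opposite strand over 43.2% of their length and those of CCNE2 overlap INTS8 over 37.0%, and the strand setting of the counting is not given, so reads there cannot be assigned to 1 gene with certainty. CDC25A, named after its values were seen, encodes the phosphatase that activates CDK2 and was 18.7 ± 0.346 FPKM in control and 21.4 ± 0.977 FPKM in PRMT1 KD cells (SD, n = 3; adjusted p = 0.107).

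The E2F and DP factors did not move as 1 block. E2F7, an atypical E2F that represses E2F targets, was called higher. The gene lies on chromosome 12 at 77021247 to 77065580 (minus strand) and shares no exon with another gene. Its control replicates had 8.89, 8.61 and 8.73 FPKM and its PRMT1 KD replicates 11.5, 11.7 and 11.5 FPKM. These replicates were closely spaced and the groups far apart, with a PRMT1 KD mean at 133% of control (log2 difference 0.37, SE 0.0461, adjusted p = 0.0240). E2F8, the other atypical E2F, was at 6.60 ± 0.398 FPKM in control and 7.28 ± 0.176 FPKM in PRMT1 KD cells (SD, n = 3; adjusted p = 0.311). E2F1, an activating E2F and itself an E2F target, was at 35.3, 37.0 and 32.7 FPKM against 43.2, 42.3 and 37.8 FPKM, a difference of 0.22 (SE 0.0695, adjusted p = 0.143). The lowest PRMT1 KD library thus lay just above the highest control library. The other activating factors, E2F2 and E2F3, had differences of 0.20 and 0.15 (adjusted p = 0.279 and 0.261).

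In TFDP1, E2F4 and E2F6 the PRMT1 KD libraries lay below the controls. TFDP1, which encodes the DP1 subunit that E2F proteins need to bind DNA, was the most highly expressed gene of this role. Its control replicates had 67.5, 71.1 and 64.4 FPKM and its PRMT1 KD replicates 59.6, 59.2 and 58.1 FPKM. All PRMT1 KD libraries lay below all control libraries, at a mean of 87.2% of control, but the difference of -0.19 (SE 0.0476) did not pass (adjusted p = 0.0926). E2F4, which acts mostly as a repressor with the pocket proteins, showed the same arrangement with 26.7, 28.7 and 26.5 FPKM against 23.7, 25.9 and 23.7 FPKM (difference -0.15, adjusted p = 0.203). E2F6, a pocket-independent repressor, differed by -0.08 (adjusted p = 0.445). TFDP2, the gene of the other DP subunit, lay on the higher side, at 2.86 ± 0.270 FPKM in control and 3.26 ± 0.224 FPKM in PRMT1 KD cells (SD, n = 3; adjusted p = 0.408). E2F5 had 0.774, 0.649 and 0.633 FPKM in control and 1.04, 0.785 and 1.03 FPKM in PRMT1 KD libraries, below the level that was tested, and 16.4% of its exon length overlaps C8orf59. With members on both sides, the summed FPKM of the 10 factors in PRMT1 KD cells was 100.9% of that in control cells.

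**Figure D3:**
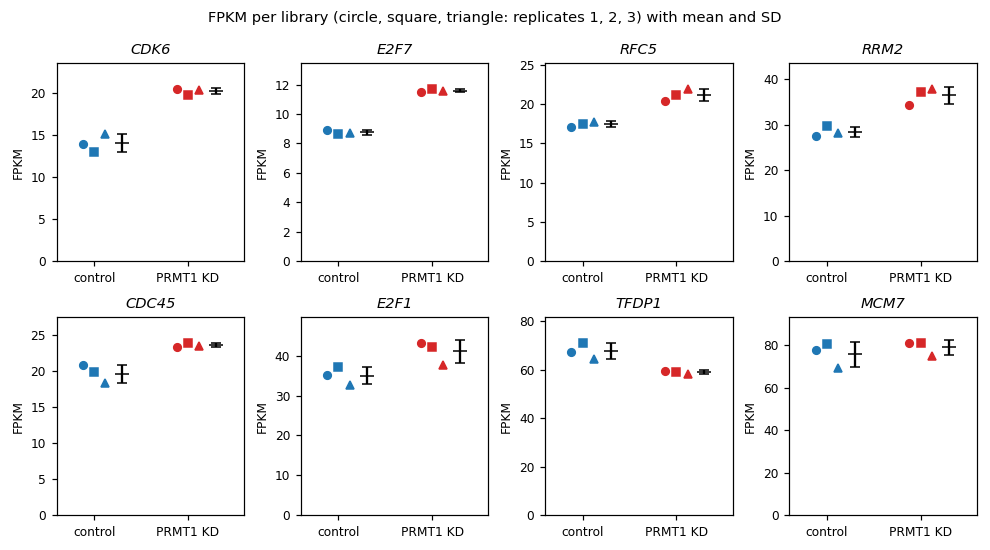
FPKM in each library for 8 genes, with control in blue, PRMT1 KD in red, and the mean and SD in black beside the points. CDK6, E2F7, RFC5 and RRM2 separate fully and passed the test, CDC45, E2F1 and TFDP1 separate without passing it, and the MCM7 groups overlap.

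None of the 9 origin recognition and licensing genes passed the test, and 8 of them had a higher mean in PRMT1 KD cells (median difference 0.071). CDT1, which brings the MCM helicase to origins, had 29.8, 30.4 and 27.0 FPKM in control and 36.0, 35.0 and 32.3 FPKM in PRMT1 KD libraries (difference 0.24, SE 0.0642, adjusted p = 0.113). ORC2, a subunit of the origin recognition complex, had 7.17, 6.34 and 7.38 FPKM against 7.87, 8.32 and 8.96 FPKM (difference 0.24, SE 0.0744, adjusted p = 0.147). These were the only 2 of the 9 genes whose groups did not overlap, where 13.6% of all tested genes lay wholly above the controls. GMNN, which encodes geminin, the inhibitor of CDT1, was at 13.6 ± 1.63 FPKM in control and 15.1 ± 0.775 FPKM in PRMT1 KD cells (SD, n = 3; adjusted p = 0.406). For CDC6, which loads the helicase together with CDT1, the difference was 0.00 with a 95% interval of -0.19 to 0.20. A difference within that interval, in either direction, was not excluded. The sign of the CDC6 difference turned under median scaling and quantile normalization. It also turned without control replicate 1, control replicate 3 or PRMT1 KD replicate 3. CDT1 was also the most highly expressed gene of this role, while ORC4 was the lowest at 1.35 to 1.72 FPKM.

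The MCM2-7 helicase genes showed small differences in 1 direction and no separation. All 6 means were higher in PRMT1 KD cells, by 0.04 (MCM5) to 0.14 (MCM4). In none of the 6 did the groups separate, where 13.6% of all tested genes separated upward and 12.3% downward. MCM7, the most highly expressed, had 77.7, 80.4 and 69.1 FPKM in control and 81.1, 81.0 and 74.7 FPKM in PRMT1 KD libraries (adjusted p = 0.663), and without control replicate 3 its difference and that of MCM5 were below 0. MCM4, with the largest difference, had 55.8, 61.4 and 53.6 FPKM against 59.4, 64.9 and 63.8 FPKM (SE 0.0636, adjusted p = 0.290). MCM2 was at 48.7 ± 3.83 FPKM in control and 52.1 ± 1.65 FPKM in PRMT1 KD cells (SD, n = 3; difference 0.10, adjusted p = 0.451). The 95% intervals of the 6 genes reached from -0.14 (MCM5) to 0.29 (MCM4), so larger changes lay outside them. The summed level of the 6 genes was 323.2 ± 20.9 FPKM in control and 342.9 ± 4.23 FPKM in PRMT1 KD libraries (SD, n = 3), and only 1 PRMT1 KD sum lay above all control sums.

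All 8 genes that turn the loaded helicase into an active one had higher means in PRMT1 KD cells, though GINS4 not without control replicate 3 and GINS2 not without PRMT1 KD replicate 2, and none passed the test. CDC45, the helicase cofactor that binds MCM2-7 at firing, came nearest. It had 20.8, 19.8 and 18.3 FPKM in control and 23.3, 23.9 and 23.5 FPKM in PRMT1 KD libraries. The groups were separate and the PRMT1 KD mean was 120% of control (difference 0.25, SE 0.0558, adjusted p = 0.0734). It passed in 3 of 16 alternative settings, with adjusted p from 0.0343 to 0.213 over all of them. GINS3, a subunit of the GINS complex that joins CDC45, had 4.68, 4.79 and 4.15 FPKM against 5.50, 5.31 and 5.52 FPKM (difference 0.22, SE 0.0674, adjusted p = 0.140). The other GINS genes had differences of 0.10 (GINS1), 0.04 (GINS2) and 0.02 (GINS4), so the 4 subunits of 1 complex spanned most of the range of this role. CDC7, the kinase that fires origins, and its activator DBF4 both differed by 0.16, with adjusted p of 0.299 and 0.491.

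The replication fork genes, meaning the clamp, its loader, the polymerases and the lagging strand enzymes, showed differences in 1 direction. All 14 were higher in PRMT1 KD cells (median 0.16), except that POLD1 lay below 0 in some settings. These were median scaling and the fits without control replicate 3, PRMT1 KD replicate 1 or PRMT1 KD replicate 2. In 8 of the 14 all PRMT1 KD libraries lay above all control libraries, against 13.6% of all tested genes. RFC5, a subunit of the clamp loader that places PCNA on DNA, rose. It lies on chromosome 12 at 118013588 to 118033130 (plus strand) and had 17.1, 17.5 and 17.8 FPKM in control and 20.4, 21.2 and 22.0 FPKM in PRMT1 KD libraries. The 3 PRMT1 KD values lay above the 3 control values, with a mean at 121% of control (log2 difference 0.27, SE 0.0475, adjusted p = 0.0477). WSB2 overlaps 5.73% of the RFC5 exons on the opposite strand. The other listed clamp loader genes were higher by 0.12 (RFC2), 0.21 (RFC3) and 0.13 (RFC4) without passing the test.

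PCNA, the sliding clamp and the most abundant of the 57 transcripts per length, had 120, 130 and 115 FPKM in control and 133, 134 and 149 FPKM in PRMT1 KD libraries (difference 0.19, SE 0.0650, adjusted p = 0.169). Its groups separated narrowly, the highest control library lying just under the lowest PRMT1 KD library. POLE, the catalytic subunit of the leading strand polymerase, had 8.31, 8.92 and 7.87 FPKM against 10.3, 10.2 and 9.28 FPKM (difference 0.22, SE 0.0665, adjusted p = 0.134). POLD1, the catalytic subunit of the lagging strand polymerase, was level, at 36.9 ± 3.85 FPKM in control and 37.3 ± 2.60 FPKM in PRMT1 KD cells (SD, n = 3), with a 95% interval of the difference of -0.19 to 0.22. FEN1 and LIG1, which trim and join Okazaki fragments, differed by 0.09 and 0.17 (adjusted p = 0.546 and 0.146).

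Of the 4 deoxynucleotide supply genes, RRM2 rose. It encodes the small subunit of ribonucleotide reductase, which is made in S phase and limits the enzyme, and lies on chromosome 2 at 10120698 to 10131419 (plus strand). Control replicates had 27.5, 29.6 and 28.1 FPKM and PRMT1 KD replicates 34.3, 37.3 and 37.8 FPKM. The groups lay well apart, with a PRMT1 KD mean at 128% of control (log2 difference 0.35, SE 0.0548, adjusted p = 0.0377). AC007240.1, an annotated gene on the same strand, shares 20.2% of the RRM2 exon length and held 30 to 55 reads, against 2424 to 3068 for RRM2. RRM1, the large subunit of the enzyme, had 19.1, 20.0 and 20.1 FPKM in control and 21.1, 22.1 and 23.4 FPKM in PRMT1 KD libraries, separate groups with a difference of 0.16 (SE 0.0533, adjusted p = 0.156). The thymidylate genes were flatter. TYMS, thymidylate synthase, was higher by 0.09 (adjusted p = 0.383), with 39.2% of its exon length shared with ENOSF1 on the opposite strand. TK1, thymidine kinase, had 80.8, 86.3 and 75.0 FPKM against 78.7, 82.7 and 76.7 FPKM, with a difference of -0.02 and a 95% interval of -0.17 to 0.12.

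The 4 genes that rose had no E2F word in their windows, though most genes with a word also lay higher. CDK6, E2F7, RFC5 and RRM2 all had a promoter window, and none of the 4 windows held a match. The 23 genes with a match had a median difference of 0.13 and 22 were higher, with 0 called. The 27 genes with a window and no match also had a median of 0.13, and 21 were higher, with 4 called. All PRMT1 KD libraries lay above all controls in 13 of the 23 and in 9 of the 27, against 13.6% of all genes. They lay below all controls in 1 of the 23 and in 2 of the 27, against 12.3%. E2F1, CDC25A, CDT1, MCM6, PCNA and POLE, whose windows are printed above, had differences of 0.08 to 0.24, while TFDP1, with the same kind of word, had -0.19. The difference between genes with and without a match was not tested.

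The listed genes also varied between libraries of the same group. Control replicate 2 was the highest control library for 34 of the 56 genes and control replicate 3 the lowest for 30. The median deviation of the 56 genes from the control mean was -0.010, 0.059 and -0.043 on the log2 scale in control replicates 1, 2 and 3 and 0.089, 0.13 and 0.15 in PRMT1 KD replicates 1, 2 and 3. The 3 PRMT1 KD medians lay above the 3 control medians, PRMT1 KD replicate 1 being close to control replicate 2. Over all genes tested the same medians lay between -0.013 and 0.011. Without control replicate 3 the share of higher genes was 78.57%, the lowest over the alternatives.

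Replicates of the same number deviated together in these genes. Over the 56 genes, the deviations from the group means correlated at 0.27, 0.51 and 0.54 between control and PRMT1 KD libraries numbered 1, 2 and 3. Between libraries of unequal number they correlated at -0.47 to 0.050. Deviations within a group cancel for each gene, so positive values at equal numbers force lower values at unequal numbers. Genes within 1 library share its depth and handling, so these correlations are a description across genes. Replicate 3 was the lowest library of both groups for 13 genes, among them CDT1, E2F1, MCM2, MCM5, MCM7, POLE and TK1. It was the highest of both for 12 others, among them ORC2, ORC3, PRIM1, PRIM2, POLA1, RFC5 and RRM1. The labels do not say what the replicate numbers mark.

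Other genes of the same pathways showed a weaker form of the same arrangement, least so in nucleotide supply. They were chosen by function, with earlier results of these data known. Of 90 further genes of G1/S control, replication and nucleotide supply, 86 were tested, 64 were higher with a median difference of 0.083, 5 rose and 0 fell, where 1.07% and 0.986% of all tested genes did. At an unadjusted p under 0.05, 25 of them were higher and 3 lower, against 10.1% and 9.47% of all genes. In 25 all PRMT1 KD libraries lay above the controls and in 6 below, against 13.6% and 12.3% of all genes. By list, 16 of 22 G1/S control genes were higher (median 0.083), 31 of 37 replication genes (0.11) and 17 of 27 nucleotide supply genes (0.054). In the nucleotide supply genes all PRMT1 KD libraries lay above the controls in 5 and below in 4. The G1/S control genes mix drivers and inhibitors of S phase entry. Named after their values were seen, the inhibitors CDKN1A and RBL1 differed by 0.25 and 0.27 (adjusted p = 0.113 and 0.0622). CDKN2A, also an inhibitor, and CCND1 differed by -0.12 and -0.15 (adjusted p = 0.442 and 0.139). MYC, a driver of G1/S entry and nucleotide synthesis, had 223, 234 and 212 FPKM in control and 286, 284 and 267 FPKM in PRMT1 KD libraries (difference 0.32, adjusted p = 0.0399). CCNA2, the S phase cyclin, rose from 49.5 ± 1.29 to 60.5 ± 2.39 FPKM (SD, n = 3; adjusted p = 0.0404). DSCC1, which helps load PCNA during cohesion establishment, rose from 14.0 ± 0.505 to 18.0 ± 1.28 FPKM (SD, n = 3; adjusted p = 0.0497). SHMT1, a folate enzyme that feeds thymidylate synthesis, and IMPDH2, the rate-limiting enzyme of guanine nucleotide synthesis, rose by 0.27 and 0.24 on the log2 scale (adjusted p = 0.0472 and 0.0491). With any 1 library left out, none of these 5 passed, with adjusted p of 0.0686 to 0.190.

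The 32 genes of G2/M and mitosis lay higher still. All 32 were tested, 31 were higher with a median difference of 0.22, 4 rose and 0 fell, where 1.07% and 0.986% of all tested genes did. In 19 all PRMT1 KD libraries lay above all controls, against 13.6% of all genes. The 4 that rose were NEK2, a centrosome kinase (0.33, adjusted p = 0.0404), MKI67, the proliferation marker Ki-67 (0.29, adjusted p = 0.0484), and the mitotic cyclins CCNB1 (0.27, adjusted p = 0.0477) and CCNB2 (0.24, adjusted p = 0.0484). With 1 library left out none of the 4 passed. These are RNA levels, and proliferation was not measured in these libraries. The paper reports reduced growth and EdU staining of MM.1S cells after PRMT1 silencing, and fewer Ki-67 positive cells in PRMT1 knockout tumors. Promoters of the G2/M and mitosis list held the CHR word more often and the E2F words less often than those of the G1/S and replication genes. The CHR word stood in 14 of 24 windows (58.3%, against 9.76% for tested genes). The E2F words stood in 3 (12.5%, against 5.85%). The CCAAT word stood in 19 (79.2%, against 37.9%), and in 48% of windows of the G1/S and replication genes. The difference between these lists was not tested.

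**Figure D4:**
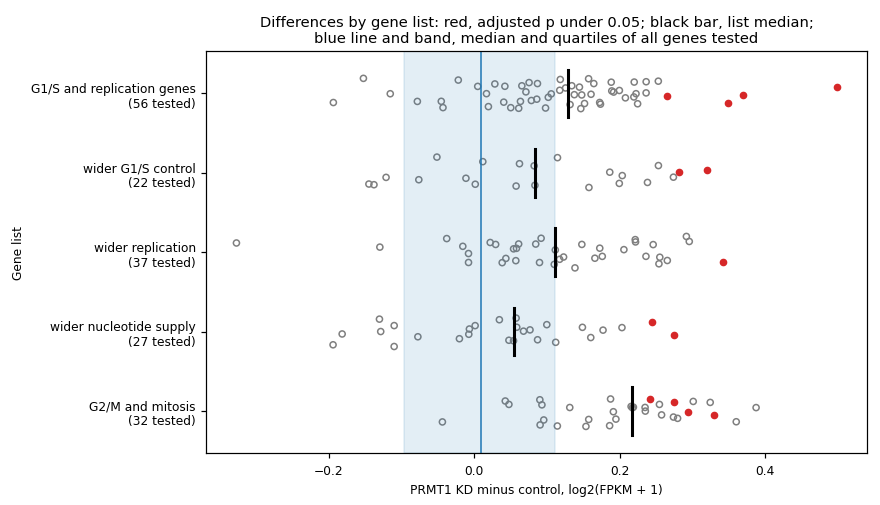
Difference between PRMT1 KD and control in log2(FPKM + 1) for each tested gene of 5 lists, with genes at an adjusted p under 0.05 in red and the list median as a black bar. The blue line and band are the median (0.0095) and quartiles of all genes tested, and the medians of the 5 lists lie to their line's right, at 0.13 for the G1/S and replication genes and 0.22 for G2/M and mitosis.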

How the data were processed

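The authors deposited 1 table of FPKM values for 6 libraries. Per the submitters' processing notes, reads were counted with featureCounts 1.5.0-p3 on hg38. The aligner and strand setting are not given in the sources used here. All 58735 genes had the coordinates and exon length of GENCODE 29. FPKM times length gave whole reads for 100% of values (tolerance 0.01), and the FPKM divisor was the median-of-ratios size factor times the geometric mean of the library totals. Differences were fitted with limma 3.58.1 in R 4.3.3 on log2(FPKM + 1), letting the prior variance follow the mean, for 13585 genes that averaged 1 FPKM or more. Tests were two-sided with Benjamini-Hochberg adjustment over those genes, and "rose" or "fell" means an adjusted p under 0.05. The scale understates changes of low genes. The fit was tested on simulated data.

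The genes and lists were chosen with earlier results of these data known. Named genes were every listed gene that passed, in each role the 2 with the largest difference and the one with the highest mean, and in other lists those that passed. All others were named after their values were seen. These were CDC25A, CCNE1, CCNE2, E2F2 to E2F6, E2F8, TFDP2, GMNN, CDC6, ORC4, MCM5, the other GINS genes and CDC7. They were also DBF4, RFC2 to RFC4, POLD1, FEN1, LIG1, TYMS, CDKN1A, CDKN2A, RBL1, CCND1 and the genes in the promoter and replicate lists. Promoters came from a RefSeq table, which held 50 of the 57 genes. Intervals cover 95%. 1 marker of other marrow cells is not reported here. Alternatives changed the pseudocount (0.1), filter, scaling, model and libraries, and added a replicate block or limma-voom on the whole reads.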

Additional observations from a re-analysis of the deposited data

How the results depend on the processing

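PRMT1 stayed lower in all 16 alternatives (-2.21 to -2.08), and the median difference of the listed genes stayed between 0.10 and 0.16. The 4 calls among them became 1 with no filter, 0 without the trend, 1 with an ordinary linear model, 7 with voom and 18 at an unadjusted p under 0.05, and 0 to 1 with a library left out. Lower calls, 0 in the report, were 1 (TFDP1) with voom and 2 unadjusted. The share of higher genes was 83.93% with median scaling and 78.57% to 87.5% with a library left out. The 5 calls in the further pathway genes became 3 with a pseudocount of 0.1, 0 with no filter, 8 with a filter of 5 FPKM, 2 with median scaling, 3 with quantile normalization, 8 as TPM, 0 without the trend, 0 with the ordinary model, 13 with voom, 25 unadjusted and 0 to 0 with a library left out, and their lower calls were 1, 1 and 3 with the filter of 5, voom and no adjustment. The 4 calls in G2/M became 0 with no filter, 7 with the filter of 5, 1 with median scaling, 7 as TPM, 0 without the trend, 0 with the ordinary model, 11 with voom, 18 unadjusted and 0 to 0 with a library left out. The calls over all genes, 279 in the report, ranged from 12 with the ordinary model to 927 with voom, and from 13 to 94 with a library left out. The cause of these shifts was not tested. Some of the settings also change the number of libraries or of genes tested.

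With the replicate number as a block (replicate block), 3 of the listed genes were called (RFC5 had adjusted p = 0.0520), 2 of the further pathway genes and 3 of G2/M, and 204 of all genes. Of the 4 G2/M genes named in the report NEK2 kept its call (adjusted p = 0.0489), and MKI67, CCNB1 and CCNB2 did not (0.0532 to 0.0581). The rule for pairing was set on the deviations from the group means over all genes. It asked for a correlation over 0.10 in every same-numbered pair and was not met. These deviations correlated at 0.020, 0.063 and 0.10 between control and PRMT1 KD libraries numbered 1, 2 and 3. Across the groups, each library's deviations correlated best with those of its own number. In the 56 listed genes alone the same correlations were 0.27, 0.51 and 0.54. No called result changed its direction under any of these alternatives.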
